A study of Mus musculus with 12 samples.

Results

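The 10 genes described here, Dnmt1, Dnmt3a, Dnmt3b, Uhrf1, Hells, Tet1, Tet2, Tet3, Ezh2 and Suz12, encode enzymes and cofactors that write, copy or remove methylation on DNA or on histone H3. They were taken by name from the probe annotation of a whole-genome mouse microarray and accounted for 10 of the 30139 genes and 19 of the 39429 probes on it. The main (brightest) probe of each was well above background on all 12 arrays, so all 10 entered every test.

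The study compared colorectal tissue of female C57BL/6N mice aged 14 weeks. Colorectal polyps and normal colorectal tissue came from the same 4 Apc+/Δ716 mice, numbered 103, 106, 107 and 110, and normal colorectal tissue from 4 wild-type mice, numbered 102, 104, 105 and 108. Apc+/Δ716 mice carry 1 truncated copy of Apc, the brake on Wnt signalling, in every cell of the body, so their normal tissue is heterozygous too. Each tissue piece was hybridised to 1 array with a single dye, and the labels do not say whether several polyps of a mouse were pooled.

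DNA methylation is copied onto the new strand after replication by DNMT1, which UHRF1 brings to half-methylated sites and for which the remodeller HELLS opens chromatin. DNMT3A and DNMT3B set methylation at new sites, and the TET enzymes oxidise it so that it can be lost. Polycomb repressive complex 2 (PRC2) methylates lysine 27 of histone H3 through its catalytic subunit EZH2, or the related EZH1, and needs SUZ12 for assembly; the mark keeps developmental genes and Cdkn2a silent. In the gut, copying enzymes are highest in dividing crypt cells.

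Short stretches of promoter are printed to show which members hold a word of the kind found at S-phase genes and which do not. RefSeq start sites (build GRCm38.p6) gave 15 windows for the 10 genes, each from 250 bases before to 50 bases after a start, and all 10 genes matched. The windows were searched on both strands for 4 E2F-type words, TTTCCCGC, TTTGGCGC, TTTCGCGC and TTTGCCGC; E2F factors are the classical activators of S-phase genes. Dnmt1, Uhrf1, Hells, Ezh2 and Suz12 held at least 1 of these words, against 2.6% of all 27025 genes and 2.26% of all 32851 windows. Dnmt3a, Dnmt3b, Tet1, Tet2 and Tet3 held none. Each of these words contains CG, and the 5 windows that held one were rich in it. They had 31 to 41 CG and 64.3% to 71.0% G or C, against medians of 7 and 52.7% over all windows. Windows of the 5 genes without a word had 17 to 57 CG. The shares over all genes were not matched for base makeup or for the number of windows a gene has. The stretches below run 5′ to 3′ on the gene's strand with the word in capitals, and the last pair ends at the base before the start and is shown because neither holds a word, although Dnmt3b had the largest difference of the 10 genes in polyps.
Hells, chr19:38930902-38930961 (+): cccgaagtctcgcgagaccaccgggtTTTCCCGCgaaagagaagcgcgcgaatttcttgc
Suz12, chr11:79992861-79992920 (+): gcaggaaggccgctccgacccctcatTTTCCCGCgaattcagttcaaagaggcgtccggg
Uhrf1, chr17:56304102-56304161 (+): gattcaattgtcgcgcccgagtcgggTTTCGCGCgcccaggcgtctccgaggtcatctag
Dnmt1, chr9:20952809-20952868 (-): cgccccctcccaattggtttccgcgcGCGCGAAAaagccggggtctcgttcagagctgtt
Ezh2, chr6:47595009-47595038 (-): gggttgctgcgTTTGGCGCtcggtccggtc
Dnmt3b, chr2:153649389-153649448 (+): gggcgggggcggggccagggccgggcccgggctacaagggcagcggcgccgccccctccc
Tet2, chr3:133544391-133544450 (-): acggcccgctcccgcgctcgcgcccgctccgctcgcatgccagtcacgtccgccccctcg
In Dnmt1 the printed word lies on the opposite strand, and its window held another of the E2F-type words after the start. The Hells word began 62 bases before the start, the Uhrf1 word 185 bases and the Suz12 and Dnmt1 words 219 bases before it, and the Ezh2 word lay just past it. CCAAT was found at Dnmt1, Uhrf1, Ezh2, Suz12 and Tet3, against 41.1% of all genes, CACGTG at Dnmt3a alone, against 8.09%, and the Wnt-effector words CTTTGAA or CTTTGAT at Dnmt1 and Suz12, against 9.88%. These are matches of letters and not measured binding, and a window without a match says only that these letters are not in it.

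All levels below are log2 signal relative to the 75th percentile of the same array, so 0 is the brightness of that percentile and 1 unit is a doubling; probes differ in brightness for the same amount of RNA, so a difference between genes within an array is read only for how it varies between arrays. Between 64.6% and 73.8% of spots were well above background on an array and none were saturated. Values of the 4 Apc mice are given in the order 103, 106, 107 and 110, and those of the wild-type (WT) mice in the order 102, 104, 105 and 108. The wild-type arrays filled 1 slide, and each of the other slides held the polyps and normal tissue of a pair of Apc mice, with normal tissue at positions 1 and 3 and polyps at positions 2 and 4. Genotype and slide therefore cannot be told apart, and neither can polyp and position on the slide within the Apc mice.

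**Figure D1:**
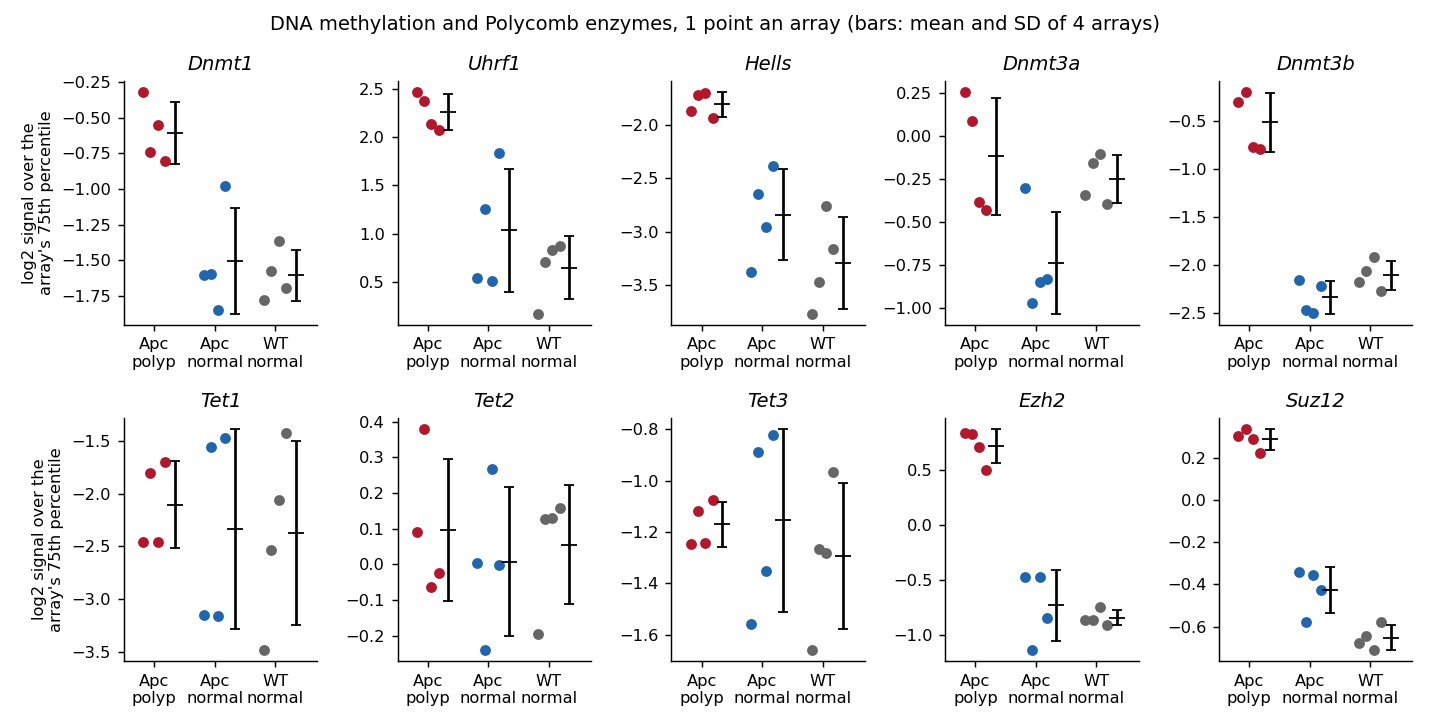
Log2 signal over the array's 75th percentile of the main probe of each gene, 1 point an array, for polyps (red), normal tissue of Apc mice (blue) and normal tissue of WT mice (grey), with the mean and SD of 4 arrays in black. All polyps lie above all normal samples for Dnmt1, Uhrf1, Hells, Dnmt3b, Ezh2 and Suz12, and the groups overlap for Dnmt3a and for Tet1, Tet2 and Tet3.

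In polyps against the normal tissue of the same mice, Dnmt1, Uhrf1, Hells, Dnmt3b, Ezh2, Suz12 and, less firmly, Dnmt3a were higher, and the TET genes were not called by their main probes. Of the 10 genes, 7 rose and 0 fell in the test across all genes (limma, Benjamini-Hochberg adjusted p under 0.05), where 45.8% of the 19663 tested genes were called, 21.0% as higher and 24.7% as lower. At an unadjusted p under 0.05 the counts were also 7 and 0, with 24.2% and 29.0% of all tested genes. The members' median difference was 0.81 log2, against -0.05 over all tested genes. For 6 of them every polyp lay above every normal sample, as was so for 20.9% of all tested genes, with another 24.5% lying wholly below. The polyps bore their label: Axin2, a direct Wnt target, was 2.82 ± 0.31 log2 higher (SE; adjusted p = 0.000305, limma) and Lgr5, the crypt stem cell receptor, 3.13 ± 0.16 higher (adjusted p = 2.4e-05).

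The makeup of the tissue also differed between the groups. The counts below stand beside 21.0% of all tested genes called higher and 24.7% called lower. All 7 smooth muscle markers fell, with a summed linear level of 19 to 39 in polyps against 211 to 290 in Apc normal tissue, and all 7 colonocyte markers fell, with sums of 58.4 to 128 against 493 to 749. Of 6 neutrophil markers 5 rose (80.7 to 185 against 22.6 to 27.6). The sums understate this, because Csf3r, the marker that did not rise (-0.06 log2), was bright in Apc normal tissue (4.42). The median difference of the neutrophil list was 5.02 log2. Of 6 tested B-cell markers 2 fell and none rose (0.619 to 2.54 against 1.81 to 13). Enteric nerve markers fell for 5 of 6 genes (0.285 to 0.512 against 0.947 to 1.42), and of the 7 general epithelial markers 3 fell and 0 rose (374 to 432 against 512 to 622). Of 5 squamous markers 2 rose (7.39 to 11.6 against 5.63 to 5.95): Krt14 by 3.78 ± 0.32 log2, and Krt6a at least 33.3-fold, since it was not well above background in Apc normal tissue. Krt13 differed by 0.15 log2 by its main probe and by 3.98 by a dimmer one. Of 5 tested macrophage markers 2 rose and 0 fell (5.55 to 10.8 against 3.37 to 7.74). Fibroblast and endothelial lists each had 1 marker higher and 1 lower of 6, and the T-cell list 1 higher of 6. Their part in the results below was not tested, and in whole tissue fewer cells of a type and less RNA per cell cannot be told apart.

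Of the copying enzymes, Uhrf1 had levels of 2.47, 2.37, 2.13 and 2.07 in polyps, against 0.54, 1.25, 0.51 and 1.83 in the normal tissue of the same mice. In WT mice it had 0.17, 0.70, 0.83 and 0.87. Every polyp was above every normal sample, and the normal tissue of mice 106 and 110, at position 3 of their slides, was nearer to the polyps than that of 103 and 107. The difference between polyps and Apc normal tissue was 1.23 ± 0.30 log2 (SE), or 2.34-fold (adjusted p = 0.0105, limma). A dimmer second probe of Uhrf1 gave 1.21 ± 0.29. The main probe lies at chr17:56462770-56462829 (build mm9, plus strand).

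Dnmt1 had levels of -0.32, -0.74, -0.55 and -0.80 in polyps, against -1.60, -1.59, -1.85 and -0.98 in Apc normal tissue. WT normal tissue had -1.78, -1.58, -1.37 and -1.70. The normal tissue of mouse 110 was again the nearest to the polyps, without overlap. Dnmt1 was 0.90 ± 0.20 log2 higher in polyps, or 1.87-fold (adjusted p = 0.00745, limma). Its single probe spans chr9:20711973-20712341 (mm9, minus strand).

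Hells had -1.87, -1.72, -1.71 and -1.94 in polyps, against -3.37, -2.65, -2.95 and -2.39 in Apc normal tissue. The polyps were close together, while normal samples spread over about 1 log2 unit. Its difference was 1.03 ± 0.21 log2, or 2.04-fold (adjusted p = 0.00439, limma; probe at chr19:39039914-39039973, mm9, plus strand). WT normal tissue had -3.77, -3.47, -2.76 and -3.17, below all polyps.

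Of the enzymes that set methylation at new sites, Dnmt3b had the largest difference of the 10 genes in polyps against Apc normal tissue. It had levels of -0.30, -0.20, -0.77 and -0.79 in polyps, against -2.16, -2.47, -2.50 and -2.22 in Apc normal tissue. In WT normal tissue it had -2.18, -2.07, -1.92 and -2.27. The groups were far apart, and the polyps of mice 103 and 106, which shared a slide, were above those of 107 and 110. The difference was 1.82 ± 0.17 log2, or 3.54-fold (adjusted p = 0.000161, limma), and its other probes gave 1.55 ± 0.20 and 1.41 ± 0.21. The 3 probes lie within chr2:153512098-153513462 (mm9, plus strand).

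Dnmt3a, the relative of Dnmt3b, had levels of 0.25, 0.09, -0.38 and -0.43 in polyps, against -0.30, -0.97, -0.85 and -0.83 in Apc normal tissue. The groups overlapped, because the normal tissue of mouse 103 lay above the polyps of 107 and 110. The difference of 0.62 ± 0.21 log2 passed narrowly (adjusted p = 0.0425, limma) and did not pass when any of 5 arrays was left out (polyps of 103 or 106, normal tissue of 106, 107 or 110; adjusted p = 0.0871 to 0.110). WT normal tissue had -0.34, -0.16, -0.10 and -0.39, a range that lay inside that of the polyps. The probe lies at chr12:3914320-3914379 (mm9, plus strand).

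Within each array, Dnmt3b minus Dnmt3a was -0.40 ± 0.11 in polyps and -1.60 ± 0.20 in Apc normal tissue (SD, n = 4 each). The change of Dnmt3b thus exceeded that of Dnmt3a by 1.20 log2, in 4 of 4 mice and without overlap between the groups. The exact two-sided permutation test gave p = 0.0286, the smallest that 4 against 4 arrays allow, and 0.0571 after Benjamini-Hochberg adjustment over the 6 gene pairs compared, which does not pass 0.05. Uhrf1 minus Dnmt1 differed by 0.33 log2 (exact permutation p = 0.2, adjusted 0.3), with overlap but in the same direction in 4 of 4 mice; paired by mouse, an exact sign-flip test gave p = 0.125, the smallest that 4 mice allow.

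**Figure D2:**
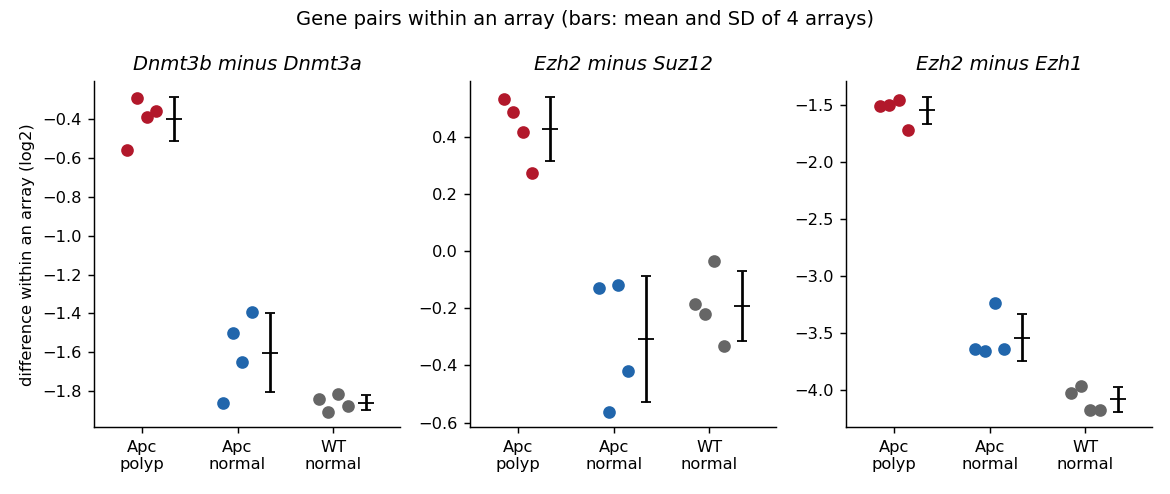
Difference of log2 signal between a pair of genes within an array, 1 point an array, for polyps (red), Apc normal (blue) and WT normal tissue (grey), with the mean and SD of 4 arrays. Polyps lie above Apc normal tissue in all 3 pairs, by 1.20 log2 for Dnmt3b minus Dnmt3a, 0.73 for Ezh2 minus Suz12 and 2.0 for Ezh2 minus Ezh1.

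The TET genes, whose enzymes oxidise methylated cytosine, were the members that did not pass this test by their main probes, and the probes of Tet1 and of Tet3 disagreed among themselves. Tet2 had 0.09, 0.38, -0.06 and -0.02 in polyps, against 0.00, -0.24, 0.27 and -0.00 in Apc normal tissue, with wide overlap. Its difference was 0.09 ± 0.15 log2 (adjusted p = 0.654, limma), and the other Tet2 probes gave 0.05 ± 0.17 and 0.30 ± 0.26, neither past the threshold. WT normal tissue had -0.19, 0.13, 0.13 and 0.16.

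Tet1 by its brightest probe had -2.46, -1.80, -2.46 and -1.70 in polyps, against -3.15, -1.56, -3.16 and -1.47 in Apc normal tissue. These values went with the place of the array on its slide: over the 3 slides the means at positions 1, 2, 3 and 4 were -3.27, -2.48, -1.69 and -1.64, and the WT arrays alone, all of normal tissue, ran -3.49, -2.54, -2.06 and -1.42. The difference between polyps and Apc normal tissue was 0.23 ± 0.45 log2 (adjusted p = 0.707, limma), and it turned to -0.56 ± 0.17 with position as a term (adjusted p = 0.0349). Polyps and normal tissue overlapped, and the direction changed with that term, whose correction came from the WT arrays alone.

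A second Tet1 probe, at chr10:62274448-62274507 (mm9, minus strand), had -2.81, -2.96, -3.65 and -3.68 in polyps, against -4.31, -4.46, -4.14 and -4.08 in Apc normal tissue. All polyps were above all Apc normal samples, and the difference of 0.97 ± 0.23 log2 passed the test over all 25493 probes (adjusted p = 0.00871, limma). WT normal tissue had -3.98, -3.89, -3.47 and -3.71 by this probe, so the polyps of 107 and 110 lay within the WT range. A further probe, not well above background on 2 of the Apc normal arrays, gave 0.75 ± 0.28 (adjusted p = 0.0543).

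Tet3 by its main probe had -1.25, -1.12, -1.24 and -1.07 in polyps, against -1.56, -0.89, -1.35 and -0.82 in Apc normal tissue, where positions 1 and 3 stood apart. In WT normal tissue it had -1.66, -1.27, -1.28 and -0.97. The difference was -0.02 ± 0.18 log2 (adjusted p = 0.951, limma). Another Tet3 probe, at chr6:83352743-83352802 (mm9, minus strand), had -3.23, -3.41, -3.18 and -3.32 in polyps, against -2.63, -2.36, -1.67 and -2.76 in Apc normal tissue. By that probe Tet3 fell by 0.93 ± 0.23 log2 with no overlap (adjusted p = 0.0109 over all probes, limma), while the remaining probe gave -0.04 ± 0.25. Which transcripts each probe reads was not tested.

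**Figure D3:**
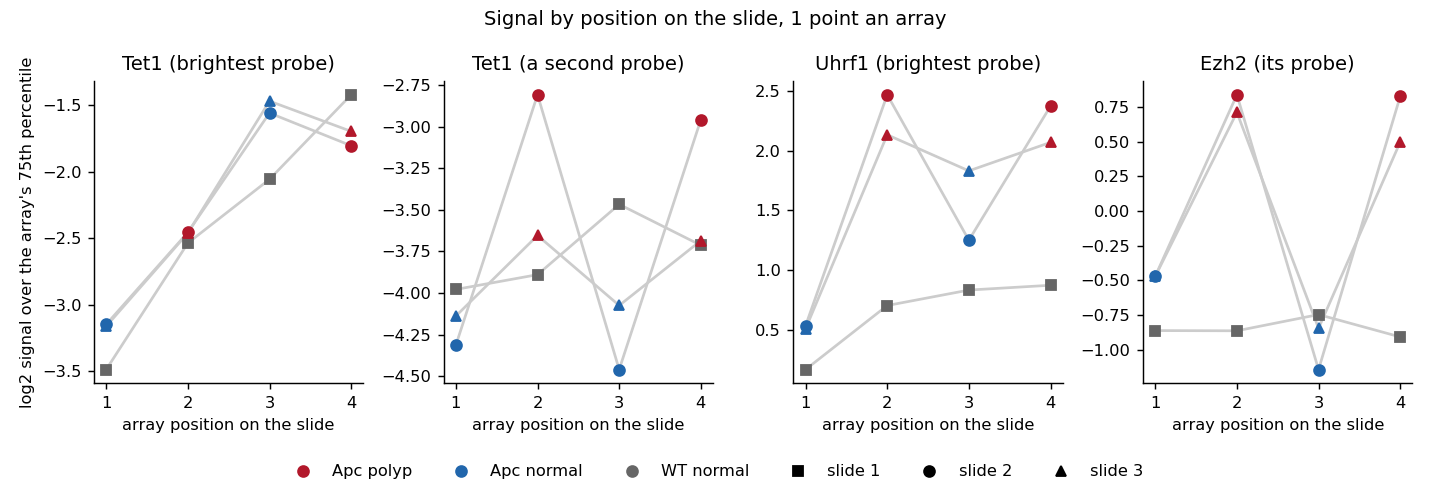
Log2 signal by the position of the array on its slide for 2 probes of Tet1, the main probe of Uhrf1 and the probe of Ezh2, 1 point an array, coloured by group with a marker for each slide and grey lines joining a slide's arrays. The brightest Tet1 probe has its lowest value at position 1 on all 3 slides, whereas Ezh2 is high at positions 2 and 4 of the slides that hold polyps there and flat on the WT slide.

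The gap between positions was smaller for the other members. In Apc normal tissue the arrays at position 3 were above those at position 1 by 1.64 log2 for the brightest Tet1 probe, 1.02 for Uhrf1, 0.65 for Hells, 0.60 for Tet3 and 0.44 for Dnmt1, and below them for Ezh2 (-0.52), Dnmt3a (-0.32), Tet2 (-0.26), Suz12 (-0.15) and Dnmt3b (-0.02). On the WT slide that gap was 1.43 for Tet1, 1.01 for Hells, 0.67 for Uhrf1, 0.41 for Dnmt1 and 0.38 for Tet3, and it was above 0 for Tet2 (0.32), Dnmt3b (0.26), Dnmt3a (0.24) and Ezh2 (0.12), with Suz12 at -0.04. Over all genes the gap had a median size of 0.29 in Apc normal tissue and 0.23 on the WT slide. With position as a term in a fit of all 12 arrays, the polyp differences were 0.94 for Uhrf1, 1.08 for Hells, 0.97 for Dnmt1, 1.94 for Dnmt3b, 1.53 for Ezh2 and 0.63 for Suz12, and all 6 kept an adjusted p under 0.05 (0.00331 to 0.0329, limma). Polyp and position coincide within the Apc mice, so the correction came from the 4 WT arrays alone, 1 mouse at each position. It takes the position effect of the WT slide to hold on the other slides, which was not tested.

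Of the Polycomb members, Ezh2 had levels of 0.84, 0.83, 0.71 and 0.50 in polyps, against -0.47, -1.14, -0.47 and -0.85 in Apc normal tissue. In WT normal tissue it had -0.86, -0.86, -0.75 and -0.91. Polyps stood clear of both kinds of normal tissue, which overlapped each other. Ezh2 was 1.45 ± 0.18 log2 higher in polyps than in Apc normal tissue, or 2.73-fold (adjusted p = 0.000435, limma). The probe lies at chr6:47480307-47480366 (mm9, minus strand).

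Suz12 had 0.31, 0.34, 0.29 and 0.22 in polyps, against -0.34, -0.58, -0.35 and -0.42 in Apc normal tissue. It varied least among polyps of all 10 members (SD 0.05, n = 4). The rise was smaller than that of Ezh2, 0.71 ± 0.10 log2 or 1.64-fold (adjusted p = 0.000664, limma; chr11:79847251-79847310, mm9, plus strand). WT normal tissue had -0.68, -0.64, -0.71 and -0.58, reaching the lowest Apc normal sample.

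Ezh1, the other catalytic subunit of PRC2, went the opposite way. Its levels were 2.35, 2.32, 2.17 and 2.22 in polyps, against 3.17, 2.52, 2.77 and 2.80 in Apc normal tissue, so that every polyp was below every normal sample. The difference was -0.55 ± 0.15 log2 (adjusted p = 0.0163, limma). Ezh2 minus Ezh1 within the array was -1.55 ± 0.12 in polyps and -3.55 ± 0.21 in Apc normal tissue (SD, n = 4 each), a shift of 2.0 log2 in 4 of 4 mice. In WT normal tissue that difference was -4.03, -3.96, -4.18 and -4.17, below every Apc normal sample. Ezh2 minus Suz12 was 0.43 ± 0.11 in polyps and -0.31 ± 0.22 in Apc normal tissue, a shift of 0.73. Both pairs gave the smallest exact permutation p that this design allows, 0.0286, and 0.0571 after adjustment over the 6 pairs. For Ezh2 minus Ezh1 that outcome was fixed in advance and is no separate check. Every polyp lay above every Apc normal sample for Ezh2 and below every one for Ezh1.

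The 6 genes whose groups did not overlap could only be higher in polyps within a slide, so their direction there is no separate check. With 2 polyps against 2 normal samples on each slide, Dnmt3b was higher by 2.06 on the first slide and 1.58 on the second. Ezh2 was higher by 1.64 and 1.26, Uhrf1 by 1.53 and 0.93, and Hells by 1.21 and 0.85 log2. Dnmt1 was higher by 1.07 and 0.73, and Suz12 by 0.78 and 0.65 log2. Of these 6, Dnmt3b passed the test on both slides (adjusted p = 0.0161 and 0.0323, limma), Ezh2, Uhrf1 and Dnmt1 on the first, and Hells and Suz12 on neither. Of all 19663 tested genes, 1501 passed as higher on the first slide and 957 on the second, and 1933 and 997 as lower.

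Against normal tissue of WT mice, which shares the polyp arrays with the comparison above, 6 of the 10 members were higher in polyps and 0 were lower, where 60.6% of 19975 tested genes were called, 27.6% as higher and 33.0% as lower (at an unadjusted p under 0.05, also 6 and 0 members, and 29.8% and 35.1% of genes, limma). Uhrf1 was higher by 1.62 ± 0.18 log2, Dnmt3b by 1.59 ± 0.16, Ezh2 by 1.56 ± 0.10, Hells by 1.48 ± 0.20, Dnmt1 by 1.0 ± 0.14 and Suz12 by 0.94 ± 0.07 (SE; adjusted p = 1.05e-05 to 0.000387, limma). These 6 did not overlap, as was so for 25.5% of all tested genes above and 31.5% below. Dnmt3a differed by 0.13 ± 0.17 (adjusted p = 0.531), Tet1 by 0.27 ± 0.42, Tet2 by 0.04 ± 0.13 and Tet3 by 0.12 ± 0.14 by their main probes, and none of these passed. The other Tet3 probe that fell above was lower in polyps here too, by 0.53 ± 0.13 log2 (-0.53, adjusted p = 0.00684 over all probes, limma), with all polyps below all WT samples, and the second Tet1 probe differed by 0.49 ± 0.23 (adjusted p = 0.098).

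In normal tissue of Apc mice against that of WT mice, 0 of the 10 members were called in either direction, where limma called 0.238% of 19291 tested genes, 0.202% as higher and 0.0363% as lower. At an unadjusted p under 0.05 stood 2 of them, where 8.03% of all tested genes were higher and 9.34% lower at that threshold: Dnmt3a, lower by 0.49 ± 0.16 log2 in Apc mice (-0.49, adjusted p = 0.197), and Suz12, higher by 0.23 ± 0.09 (adjusted p = 0.272). Without the Apc normal array of mouse 103, Dnmt3a was lower by 0.63 (-0.63, adjusted p = 0.0416). By their main probes the differences of the other 8 lay between -0.23 and 0.45 log2, and all 10 members overlapped between the groups, whereas 4.69% of all tested genes lay wholly above and 5.71% wholly below. The dimmer Tet1 probes lay wholly below in Apc mice, by 0.49 ± 0.15 log2 (-0.49, adjusted p = 0.173 over all probes, limma) for the second probe described above and by 0.68 ± 0.19 (-0.68, adjusted p = 0.155) for the further one; neither passed.

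**Figure D4:**
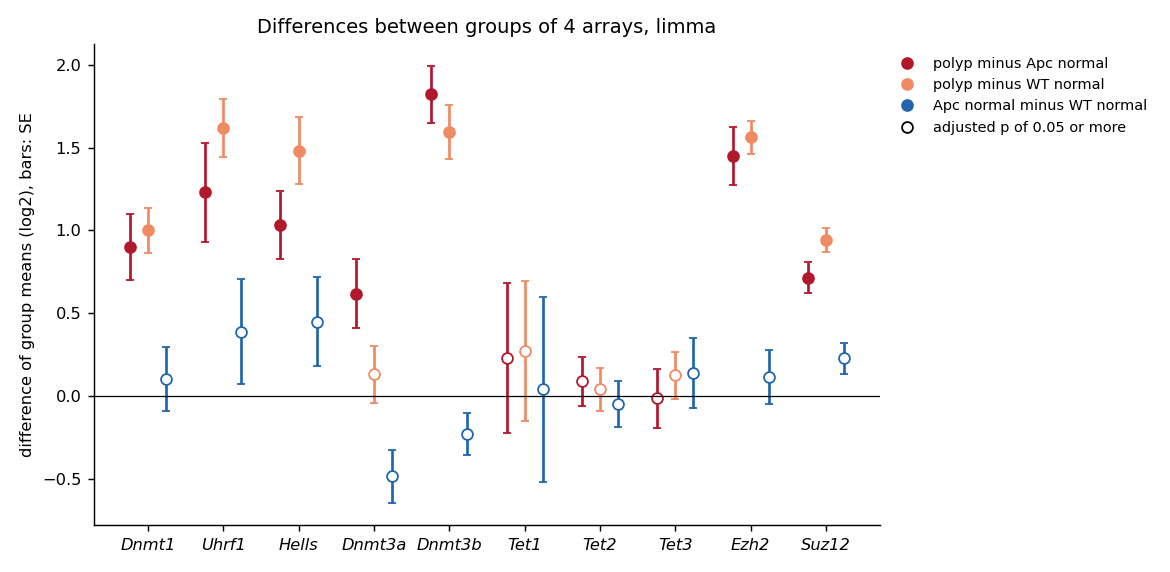
Difference of group means in log2 with its SE (limma, 4 arrays a group) for each gene in the 3 comparisons; filled points have an adjusted p under 0.05. Polyp differences of Dnmt1, Uhrf1, Hells, Dnmt3b, Ezh2 and Suz12 are filled against both kinds of normal tissue, Dnmt3a only against Apc normal tissue, and no point of Apc normal minus WT normal is filled.

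The members were next set beside genes of DNA replication, since Dnmt1, Uhrf1 and Hells are expressed in S phase. Of 20 replication genes 18 rose and 0 fell in polyps against Apc normal tissue, with a median of 0.92 log2, and all 11 tested mitosis genes rose, with a median of 1.62. Over all tested genes 21.0% rose and 24.7% fell. The smallest p among the replication genes were those of Rrm1, a ribonucleotide reductase subunit (1.27 ± 0.11 log2), and Gins1, of the replicative helicase (1.85 ± 0.18). The leading mitosis genes were Top2a, a DNA topoisomerase (1.87 ± 0.13), and Bub1, a spindle checkpoint kinase (2.15 ± 0.15). Pcna, the replication clamp, was 0.56 log2 higher and the division marker Mki67 1.15 higher. The mean level of the 20 replication genes was 1.35 to 1.40 in polyps and 0.07 to 0.83 in Apc normal tissue. In Apc normal tissue it was 0.07 and 0.30 at slide position 1, and 0.54 and 0.83 at position 3. The mean of the 11 tested mitosis genes was 1.62 to 1.83 in polyps. In Apc normal tissue that mean was 0.29 and 0.43 at position 1, and 0.09 and -0.23 at position 3. Mouse and position cannot be told apart here.

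The mean of the replication genes was taken as an index within each array. Relative to it, Dnmt3b was 0.89 log2 higher in polyps, in 4 of 4 mice, at -1.89 ± 0.32 against -2.77 ± 0.38 (SD, n = 4 each). Tet2 was lower by 0.85 (-0.85), at -1.28 ± 0.22 in polyps against -0.43 ± 0.44, and Tet3 lower by 0.95 (-0.95), at -2.54 ± 0.10 against -1.59 ± 0.11, each in 4 of 4 mice. For these 3 genes the groups did not overlap and the exact permutation test gave p = 0.0286, or 0.0952 after adjustment over the 10 comparisons, which does not pass 0.05. Dnmt1 (-0.04), Hells (0.09), Suz12 (-0.22), Uhrf1 (0.29), Dnmt3a (-0.32), Ezh2 (0.51) and Tet1 (-0.71) overlapped between the groups on this scale. Paired by mouse, Ezh2 was higher in 4 of 4 polyps and Tet1 lower in 4 of 4. All these values are relative to replication genes only. The index itself was higher in every polyp than in every Apc normal sample, so a gene with no change of its own falls on this scale. Without the index Tet2 differed by 0.09 log2 and Tet3 by -0.02, and the median of all tested genes was -0.05. The share of all genes that lie as low on this scale was not computed. Mitosis genes rose more than replication genes, by a median of 1.62 log2, and Dnmt3b itself by 1.82. Whether the rise of Dnmt3b goes with cell division was not tested.

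Over the 12 arrays the members' levels were compared by Pearson's r with group differences included. Dnmt1, Uhrf1 and Hells were correlated with each other at 0.90 to 0.95, Ezh2 and Suz12 at 0.97, and Dnmt3b with Ezh2 at 0.95. After group means were taken out, Uhrf1 was at 0.79 with both Dnmt1 and Hells, but also at 0.84 with Tet3 and 0.81 with Tet1, and Dnmt1 with Hells at 0.59. Ezh2 was at 0.78 with Suz12 and at -0.44 with Uhrf1. Dnmt3a and Dnmt3b were at 0.87 after the same step. Tet1 and Tet3 were at 0.96 by their main probes, the ones whose values went with slide position; arrays share slides and positions, and these values are descriptions.

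Among 15134 genes, those most like Uhrf1 over the 12 arrays were Timeless (r = 0.98), Chaf1b (0.98) and Siva1 (0.98), and those most like Hells were Asf1b, Aunip and Siva1 (each 0.98). CHAF1B and ASF1B are histone chaperones of replicating chromatin. Dnmt1 was most like Cep250 (0.98), Lig1 (0.97), the DNA ligase of replication, and Msto1 (0.97). Closest to Dnmt3b were Gprc5c, Mex3b and Dcakd (each 0.99), to Ezh2 Tedc1, Ajuba and Runx1 (each 0.99), and to Suz12 Adam10, Pak6 and Krt23 (each 0.99). Dnmt3a was most like Ing2 (0.96), Tet1 Kcnk4 (0.99), Tet3 Asb4 (0.97) and Tet2 Slc25a37 (0.85), the lowest of these leading values. These values include the difference between polyps and normal tissue. After group means were taken out, the most alike gene became Pwwp3a for Uhrf1 (0.97), Atrn for Ezh2 (0.96), Vegfc for Dnmt3b (0.96) and Washc2 for Suz12 (0.94), while Cep250 stayed first for Dnmt1 (0.96) and Aunip was first for Hells (0.95).

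Partners of the 10 genes were read by list. The counts of each list stand beside 21.0% of all tested genes called higher and 24.7% called lower in polyps against Apc normal tissue. Of 10 other PRC2 genes 4 rose and 2 fell in that comparison. The histone-binding subunit Rbbp4 was higher by 0.65 ± 0.11 log2 (adjusted p = 0.00174, limma). Phf1, a Polycomb-like accessory subunit, was lower by 1.21 ± 0.16 (-1.21, adjusted p = 0.000564), the smallest p of the list. The core subunit Eed differed by 0.21 ± 0.09 (adjusted p = 0.0944), although its polyps did not overlap its normal samples.

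In Polycomb repressive complex 1, which reads the PRC2 mark and ubiquitinates histone H2A, 8 of 20 genes rose and 1 fell. Pcgf6 and Kdm2b, of its variant forms, were higher by 0.95 ± 0.13 and 1.04 ± 0.14 log2 (adjusted p = 0.000622 and 0.000669, limma), and Bmi1, a core ring-finger subunit, by 0.70 ± 0.11 (adjusted p = 0.00149). Cbx7, a reader of the mark, differed by 0.45 ± 0.29 (adjusted p = 0.248). Of 10 H3K27 demethylases and trithorax genes, which oppose Polycomb, 1 rose and 1 fell. Ash2l was higher by 0.69 ± 0.10 and Kmt2c lower by 0.39 ± 0.14 (-0.39); the demethylases Kdm6a (0.24 ± 0.11) and Kdm6b (0.67 ± 0.26) did not pass.

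Of 16 genes that read methylated DNA, take part in its removal or act beside the enzymes that write and copy it, 8 rose and 3 fell. Zbtb38, which binds methylated CpG, was higher by 1.25 ± 0.10 log2 and Cdca7, the activator of HELLS, by 1.33 ± 0.12 (adjusted p = 9.56e-05 and 0.00015, limma). Tdg, the glycosylase that excises oxidised methylcytosine after TET action, was higher by 0.80 ± 0.11 (adjusted p = 0.000749), with its dimmer probes at 1.16 and 0.19. Uhrf2, the relative of Uhrf1, differed by 0.21 ± 0.17 (adjusted p = 0.348). Of 9 genes of H3K9 methylation 6 rose and 0 fell, led by Cbx3 (0.96 ± 0.09) and Suv39h1 (1.01 ± 0.12).

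**Figure D5:**
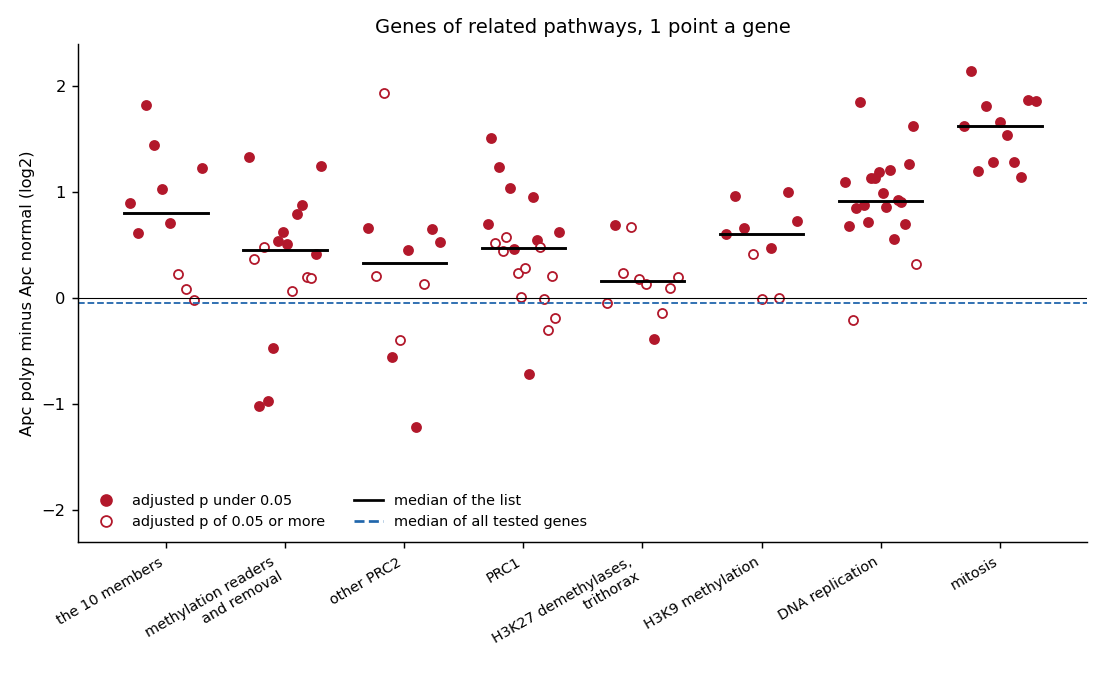
Polyp minus Apc normal difference in log2 for each tested gene of 8 lists, with filled points for an adjusted p under 0.05, the list median as a black bar and the median of all tested genes as a dashed line. Replication and mitosis genes lie almost all above 0 (medians 0.92 and 1.62), as do the 10 members (0.81), while other PRC2 genes run from -1.21 to 1.94.

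Genes that these marks are known to silence were read last. Of 12 genes known as Polycomb targets 8 were tested, and 1 rose and 4 fell, where 21.0% of all tested genes rose and 24.7% fell. Cdkn2a, which encodes the cell-cycle inhibitors p16INK4a and p19ARF, had levels of 0.02, -0.25, -0.69 and -1.44 in polyps, against -6.61, -6.04, -7.31 and -6.33 in Apc normal tissue, where it was not well above background on any array. The rise in polyps came to at least 37.9-fold (adjusted p = 4.11e-05, limma), with measured means of -0.59 and -6.57. The bound was set by the lowest signal well above background on each normal array, or by the measured level where that was higher. Its neighbour Cdkn2b was lower by 1.35 ± 0.23 log2 (-1.35, adjusted p = 0.00199). Of 12 germline genes silenced by DNA methylation only 2 were bright enough to test; Rhox5, a homeobox gene of the X chromosome, was higher by 2.32 ± 0.39 log2 (adjusted p = 0.00196), and Tuba3a differed by 0.71 ± 0.54 (adjusted p = 0.315).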

How the data were processed

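All 12 arrays were read, 4 for each of 3 groups, grouped by genotype and tissue in the titles. Per the file headers, the authors' scanner software, Agilent Feature Extraction (10.7.3.1 in the submitters' processing notes), gave each spot a background-subtracted intensity, linear and not scaled between arrays. A deposited value table holds a linear ratio to each array's own scale, per the file headers and its match to the scanner values (99.78% to 99.86% of entries within 1%, column medians 0.9999 to 1); it served as an alternative.

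Outlier spots (1403 over all arrays) were left out, spots of a probe averaged, and log2 signal taken minus each array's 75th percentile. Genes were named by RefSeq accession (27508 probes), symbol (3544) or synonym (404), otherwise by the file (7973); the brightest probe stood for a gene. Genes well above background on all 4 arrays of a compared group were tested on the 8 arrays of that comparison with limma 3.58.1 (R 4.3.3), adjusted over all tested genes by Benjamini-Hochberg. The number of arrays limits the precision, and p-values measure the spread between mice and arrays together. Gene pairs and the replication index were tested by exact permutation of 4 against 4 arrays. The fit was tested on simulated data. Mouse numbers in the titles pair polyp and normal tissue of an animal, and their deviations from group means correlated at 0.47, 0.18, 0.14 and 0.29, against -0.34 to 0.20 for other pairs. Members and lists were chosen with earlier results of these data known. All member probes are described; from each pathway list the 2 genes of smallest p in polyps against Apc normal tissue are named, with Ezh1, Eed, Cbx7, Bmi1, Tdg, Uhrf2, Kdm6a, Kdm6b, Axin2, Lgr5, Mki67 and Pcna in any case, and for likeness up to 3 leading genes by Pearson's r. Alternatives were other scalings, background correction, filters, probe summaries, fits, blocks and arrays left out; slide position as a term was added after the data were seen.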

Additional observations from a re-analysis of the deposited data

Results flagged for a closer look

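Among 57 groups of 4 arrays, 1 for each probe of the 10 genes in each group, 1 held a sample far from the other 3; chance would mark about 1 in 20. It was the main Tet2 probe in WT normal tissue, where mouse 102 was at -0.19 log2 and the nearest of the others at 0.13, a gap of 0.907 of the group's range. Without that array the Tet2 difference of polyps from WT normal tissue was -0.04 log2, in place of 0.04, and it passed the test in neither case.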

How the results depend on the processing

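In polyps against Apc normal tissue, Dnmt1, Uhrf1, Hells, Dnmt3b, Ezh2 and Suz12 kept their direction under every alternative run. Where an alternative only left out arrays or split them by slide, that outcome was fixed in advance by the lack of overlap. The mouse number as a replicate block changed no call of the 10 members (7 higher, 0 lower), nor did slide as a fixed block. Within slides 2 and 3, with 2 arrays against 2, genes called came to 3434 and 1954 of 19663, with 1501 and 957 of them higher. Members called higher came to 4 and 1. A 2-fold minimum gave 4063 genes, 1830 of them higher, and 4 members called higher. Members called lower came to 1 with the mean over a gene's probes (Tet3, -0.33) and to 1 with slide position as a term (Tet1, -0.56). The Dnmt3a call was also lost with median scaling, the deposited value table, no filter on dim probes, array weights, slide position and within either slide (adjusted p = 0.0580 to 0.183, limma).

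Directions of uncalled values turned as follows. For polyps against Apc normal tissue, Tet3 was 0.040 within slide 2, and Tet2 -0.18 within slide 3 and -0.086 with slide position; leaving out an array gave -0.046 to 0.52 for Tet1, -0.0057 to 0.18 for Tet2 and -0.15 to 0.10 for Tet3. For polyps against WT normal tissue, Tet3 was -0.22 with the mean over probes, Tet2 -0.017 with array weights, and slide position gave -0.13 for Tet1, -0.046 for Tet2 and -0.052 for Tet3; leaving out an array gave -0.10 to 0.59 for Tet1 and -0.053 to 0.094 for Tet2. For Apc normal against WT normal tissue, Tet1 was -0.0039 with median scaling, -0.0049 with the value table and -0.37 with the mean over probes, and Tet2 0.039 with slide position; leaving out an array gave -0.33 to 0.36 for Tet1, -0.13 to 0.035 for Tet2 and -0.076 to 0.21 for Dnmt1.

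Between Apc normal and WT normal tissue the 46 genes called became 19 with median scaling, 3 with normexp and quantile normalization, 19 with the value table, 2 with no filter, 24 with both groups above background, 28 with the mean over probes, 236 with all 12 arrays in 1 fit, 11 with a robust variance trend, 200 with array weights, 779 with slide as a random block, 235 with slide position, 30 with a 2-fold minimum and 0 to 587 without 1 array; members called lower ranged from 0 to 1 without 1 array (Dnmt3a, without Apc normal 103). Polyps against WT normal tissue gave 5137 genes with a 2-fold minimum, against 12102. With slide as a random block, the correlation fitted within a slide was -0.080 for Apc normal against WT normal tissue. Genotype and slide cannot be told apart, so the 779 genes are no check on slide. The causes were not tested.

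With the mean over probes, 4 gene pairs passed the exact permutation test after adjustment: Dnmt3b minus Dnmt3a (0.98), Tet1 minus Tet3 (0.98), Ezh2 minus Suz12 (0.73) and Ezh2 minus Ezh1 (1.79), each at an adjusted p of 0.0429; with the brightest probe, 3 pairs reached the smallest p, and here 4. Tet1 minus Tet2 ranged from -0.22 to 0.48 without 1 array. Against the index, Hells was -0.20 with normexp and quantile normalization; with mitosis genes as the index Uhrf1 was -0.36, Hells -0.56 and Ezh2 -0.14; and Dnmt1 ranged from -0.13 to 0.052 without 1 array. Sign flips over 4 mice cannot reach 0.05, so that alternative is a value with no test. The number of arrays, 4 a group, limits the precision.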
